A study of Mus musculus with 6 samples.

Results

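The genes described here encode the proteins of the cytosolic ribosome, the particle that translates nuclear-encoded mRNAs. Members were taken by gene symbol: protein-coding mouse genes named Rpl or Rps with a number, together with Rplp0 to Rplp2 and Rpsa. The rule found 84 such genes, of which 82 had 10 or more reads summed over the 6 libraries and were analysed, among 19452 genes tested in all. The 82 comprised 50 genes of the large subunit and 32 of the small subunit. By name, 77 were core genes and 5 were paralogs with a symbol ending in l or l1 (Rpl7l1, Rpl22l1, Rpl36al, Rpl39l and Rps27l). The other two paralogs were at or near 0: Rpl10l had 0 reads in all 6 libraries, and Rpl3l had 0, 5 and 2 reads in SAFB KD cells, against 0, 1 and 0 reads in control cells. The rule used no measured value beyond the read minimum.

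Poly(A)+ RNA was sequenced from 3T3, a mouse fibroblast line of embryonic origin that grows indefinitely in culture. The SAFB KD group (3 libraries) received siRNAs against the transcripts of Safb1, Safb2 and Sltm together, which encode related RNA-binding proteins of the nucleus, and the control group (3 libraries) received control siRNA. All cells were Flp-In 3T3 cells, transfected a second time a day after the first and harvested on the third day. Each library is 1 culture sample of 1 cell line, and nothing in the sources used here says how far the cultures were independent, so the p-values measure the spread between these samples. In bulk RNA, more or fewer cells of a kind and more or less RNA per cell cannot be told apart.

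The large subunit joins amino acids and passes the growing chain through an exit tunnel, and the small subunit reads the mRNA. Nearly every one of the proteins is present once in each ribosome, so cells make them in balanced amounts from single-copy genes scattered over the genome. In mammals their mRNAs are short, abundant and stable, and start at a pyrimidine run, the 5′ terminal oligopyrimidine (TOP) motif, through which the kinase complex mTORC1 and the binding protein LARP1 set how much of the mRNA is translated. The same genes have left many processed pseudogenes in the mouse genome, and the introns of a good number of them hold genes for small nucleolar RNAs.

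Start sites are shown for members with changes from the largest rise to a fall, because the TOP run is the sequence that these genes are best known to share. Each line gives 30 bases of RefSeq sequence on the gene's own strand (GRCm38.p6), in which the RefSeq start site is the 16th base and capitals mark the part of a run of 7 or more pyrimidines that lies in the window.
Rpl7l1, chr17:46782642-46782671, minus strand: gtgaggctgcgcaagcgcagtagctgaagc
Rps3, chr7:99483695-99483724, minus strand: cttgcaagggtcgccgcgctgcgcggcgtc
Rpl7a, chr2:26910792-26910821, plus strand: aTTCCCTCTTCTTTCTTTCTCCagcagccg
Rps6, chr4:86857353-86857382, minus strand: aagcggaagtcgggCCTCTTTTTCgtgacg
Rps18, chr17:33955651-33955680, minus strand: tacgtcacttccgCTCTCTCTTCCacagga
Rplp2, chr7:141447636-141447665, plus strand: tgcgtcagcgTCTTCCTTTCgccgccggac
Rps27, chr3:90213634-90213663, minus strand: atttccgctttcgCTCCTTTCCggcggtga
Rpsa, chr9:120127751-120127780, plus strand: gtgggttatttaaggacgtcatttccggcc
Rpl7a, Rps6 and Rps18 rose in SAFB KD cells and carry a run over the start site, while Rplp2 and Rps27 also carry a run over the start site and did not pass the test. The whole run was of 21 pyrimidines in Rpl7a, 10 in Rps6, 11 in Rps18, 10 in Rplp2 and 9 in Rps27. Rpl7l1 and Rps3, the paralog and the core gene with the largest rises, have no run of that length in these windows. Rpsa, the only fall shown, has none either. Rpl13a, which also fell and is not shown, has a run of 14 pyrimidines that begins just after its start site. The start sites are annotated ones, and those used in these cells were not measured. In another annotation, GENCODE M21, the gene of Rps3 starts at 99483738 and that of Rpsa at 120127689, both outside the windows shown.

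Most of the 82 genes rose in SAFB KD cells, mostly by a small amount. By edgeR's quasi-likelihood test at a Benjamini-Hochberg adjusted p below 0.05 over all 19452 genes, 72 members were higher, 2 were lower (Rpl13a and Rpsa) and 8 did not pass. The background was 21.4% of all genes tested higher and 20.1% lower, so the share of members called higher, 87.8%, lay far above it and the share called lower, 2.44%, far below. Among the 468 other protein-coding genes with a mean of 300 CPM or more (reads of a gene scaled to the size of its library), a level at which small changes are easier to call, 49.1% were higher and 29.3% lower. The median log2 fold change was 0.22 over the members (1.17-fold; quartiles 0.14 and 0.28), 0.07 over those 468 abundant genes and 0.01 over all genes. The largest change was the paralog Rpl7l1 at 0.61, and no core gene passed 0.39.

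The 3 libraries of each group did not overlap for 72 members that were higher and 2 that were lower in SAFB KD cells, where the background over all genes was 25.3% higher and 23.7% lower. These counts equal those of the calls, but the genes are not all the same. Rps21, a small-subunit protein, was called higher although its lowest SAFB KD library, at 320 CPM, lay below the highest control library, at 328 CPM, and the call was lost without SAFB KD 3, with DESeq2's Wald test (adjusted p = 0.101) and with the length trend removed (0.04, adjusted p = 0.444). Rpl6, a large-subunit protein, had 1194, 1183 and 1203 CPM in SAFB KD cells, against 1145, 1137 and 1142 CPM in control cells, so its groups were apart while its adjusted p was 0.0522 by edgeR. DESeq2's Wald test, limma-voom, the fit with no filter and TMM without the ribosomal protein genes called Rpl6 higher. Among the other calls, Rps9 was lost without control 1, 2 or 3 and without SAFB KD 1 or 2, Rpl14 without control 1 or 2, and Rps20 without control 2. All of these were also lost with library totals as the scale.

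**Figure D1:**
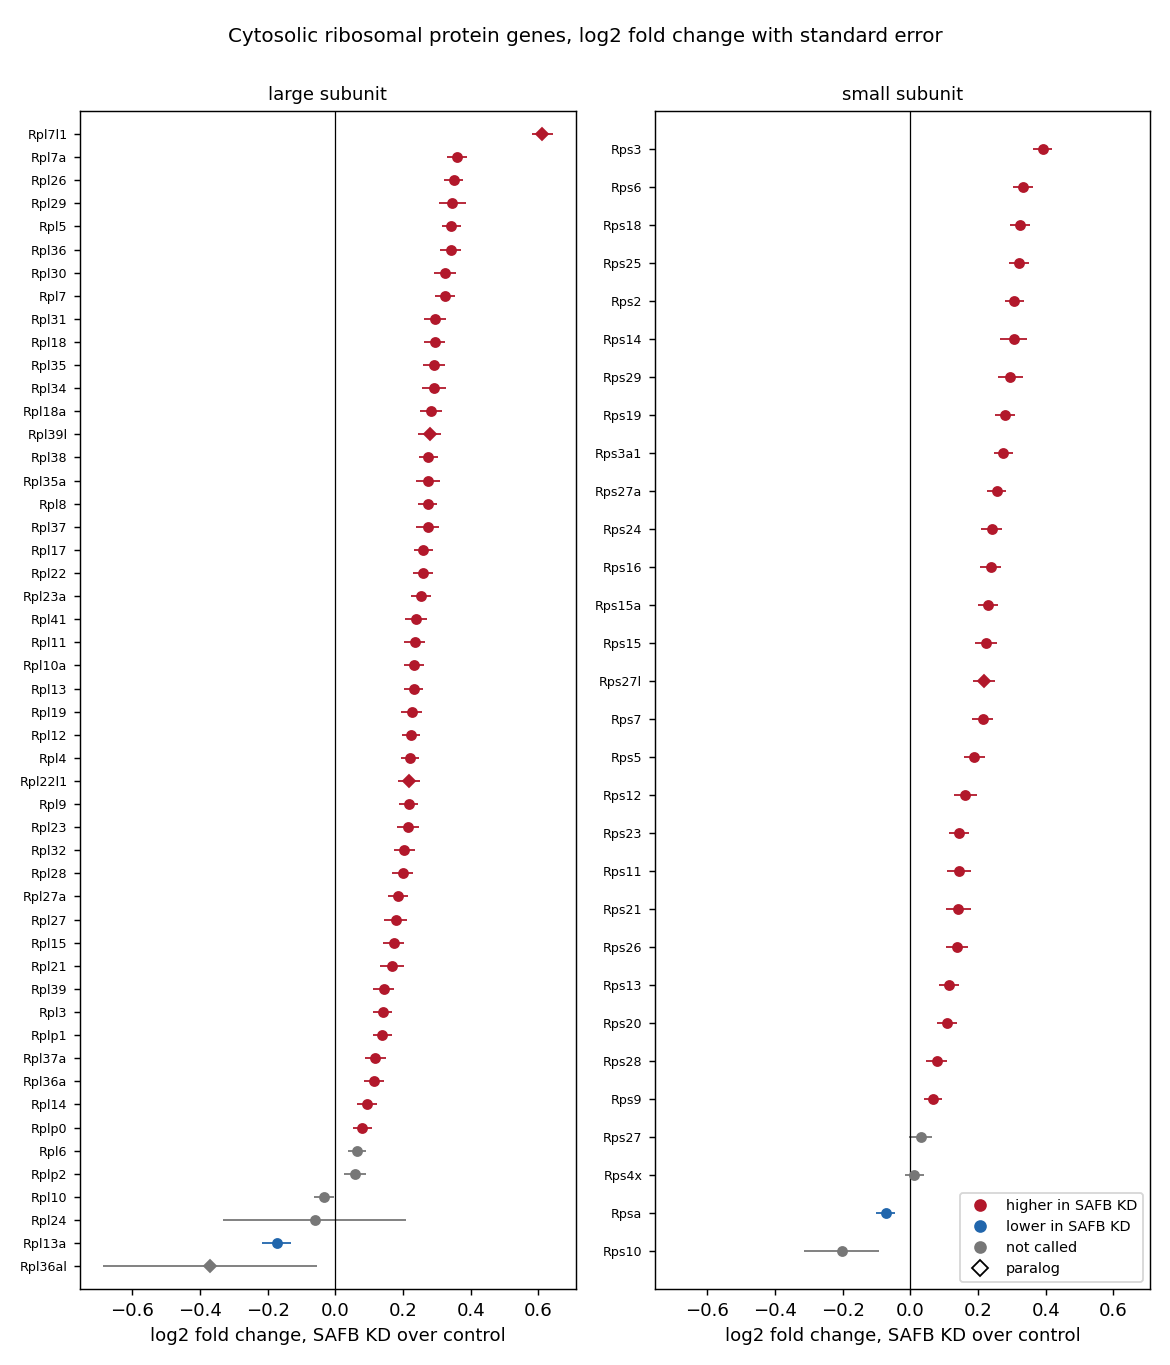
Log2 fold change of SAFB KD against control cells (x axis) for large-subunit and small-subunit genes (y axis), ordered by value; bars are standard errors and diamonds are paralogs. Red points are genes higher in SAFB KD, blue points the 2 lower genes and grey points the 8 not called; Rpl7l1 stands apart at 0.61, and the wide bars belong to Rpl24, Rpl36al and Rps10, which have few reads.

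Summed over the 82 genes, the reads followed the single genes. Ribosomal protein genes took 6.18%, 6.27% and 6.32% of the counted reads in SAFB KD libraries, against 5.59%, 5.56% and 5.56% in control libraries. The mean share was 6.25% ± 0.071 in SAFB KD cells and 5.57% ± 0.015 in control cells (SD, n = 3 each), a ratio of 1.12. This share is of raw counts, to which no normalisation factor was applied. In the fits those factors were 0.982 to 0.992 in SAFB KD libraries and 1.01 to 1.02 in control libraries.

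Both subunits took part. Of the 50 large-subunit genes, 44 were higher and 1 was lower, with a median log2 fold change of 0.23. Of the 32 small-subunit genes, 28 were higher and 1 was lower, with a median of 0.22. The large-subunit genes took 3.78% ± 0.037 of reads in SAFB KD cells and 3.34% ± 0.0081 in control cells, and the small-subunit genes took 2.47% ± 0.034 in SAFB KD cells and 2.23% ± 0.021 in control cells (SD, n = 3 each). Large-subunit reads per small-subunit read were 1.54, 1.53 and 1.53 in SAFB KD libraries and 1.48 to 1.52 in the 3 control libraries. The ratio was higher in all 3 SAFB KD libraries, by 0.032 on average, which is larger than the SD of either group but no more than the spread from the lowest to the highest control library.

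**Figure D2:**
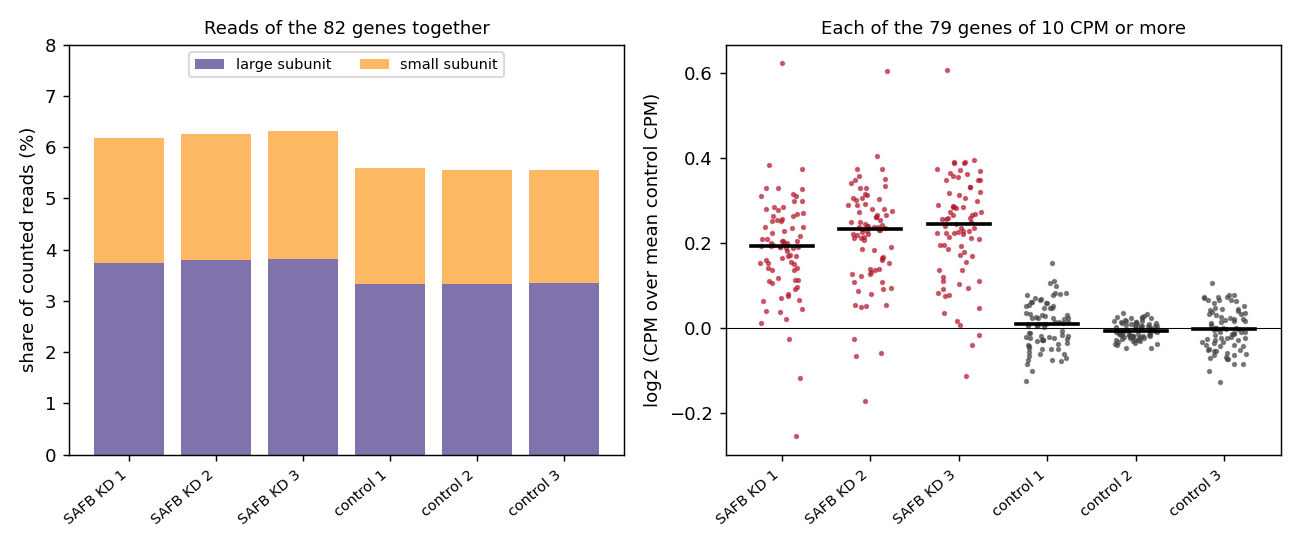
Left, share of counted reads (%) taken by the large- and small-subunit genes in each of the 6 libraries, stacked; right, log2 of each gene's CPM over its mean control CPM in each library for the 79 genes of 10 CPM or more, with the median as a line. The 3 SAFB KD libraries hold 6.18% to 6.32% against 5.56% to 5.59% in control libraries, and their points lie mostly above 0, with Rpl7l1 as the highest point in each.

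The core genes with the largest rises came from both subunits. Rps3 (chromosome 7, 99477896 to 99483738, minus strand; GRCm38), which lines the mRNA entry channel of the small subunit and also acts in DNA repair, had 1176, 1200 and 1193 CPM in SAFB KD cells, against 926, 888 and 906 CPM in control cells. The groups were well apart, and the fitted log2 fold change was 0.39 (SE 0.028, adjusted p = 4.16e-15). Rpl7a, a large-subunit protein whose introns hold snoRNA genes, had 904, 922 and 943 CPM in SAFB KD cells and 738, 718 and 703 CPM in control cells, with no overlap (log2 fold change 0.36, SE 0.029). Rpl26, at the rim of the exit tunnel and known in human cells to bind p53 mRNA, had 1044, 1077 and 1059 CPM in SAFB KD cells, against 850, 815 and 829 CPM in control cells (log2 fold change 0.35, SE 0.028). In each of these 3 genes the lowest SAFB KD library lay above the highest control library by more than either group's own range.

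Rpl29, Rpl5 and Rpl36 completed the 6 largest rises among core genes. Rpl29 was the least abundant of them, with 65.5, 70.7 and 71.4 CPM in SAFB KD cells, against 53.8, 55.9 and 53.9 CPM in control cells (log2 fold change 0.35, SE 0.041). Rpl36 had 275, 281 and 287 CPM in SAFB KD cells and 229, 216 and 220 CPM in control cells (log2 fold change 0.34, SE 0.031). Rpl5 had 1552, 1556 and 1587 CPM in SAFB KD cells, against 1199, 1225 and 1279 CPM in control cells (log2 fold change 0.34, SE 0.028). Rpl29 and Rpl5 thus rose alike at very different CPM.

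Rpl5 and Rpl11 enter the ribosome together with the 5S rRNA, and as a free particle the 3 molecules bind and inhibit MDM2, the ubiquitin ligase that degrades p53. Rpl11 had 497, 502 and 513 CPM in SAFB KD cells and 448, 427 and 410 CPM in control cells (log2 fold change 0.23, SE 0.031, adjusted p = 3.62e-08). The 8 genes of the 5S particle, its loading and its p53 link include the members Rpl5 and Rpl11. Of the 8, 5 were higher (62.5%, against 27.6% of all protein-coding genes) and 0 lower. They included Rpf2, a loading factor of the particle (56.8 ± 1.78 CPM in SAFB KD cells and 40.4 ± 2.30 CPM in control cells; log2 fold change 0.50, SE 0.045), and Mdm2 itself (134 ± 2.02 CPM in SAFB KD cells and 86.5 ± 0.668 CPM in control cells; SD, n = 3 each; log2 fold change 0.63, SE 0.033). Trp53, the p53 gene (log2 fold change 0.08, SE 0.037), Rrs1 (-0.02, SE 0.037) and Mdm4 (-0.01, SE 0.036) did not pass the test.

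Rps6 encodes the small-subunit protein that the S6 kinases phosphorylate downstream of mTORC1. It had 1006, 1057 and 1068 CPM in SAFB KD cells, against 831, 838 and 817 CPM in control cells, and rose by a log2 fold change of 0.33 (SE 0.029, adjusted p = 1.10e-12). Rps27a, which is translated as a fusion of ubiquitin and a small-subunit protein, had 1237, 1251 and 1219 CPM in SAFB KD cells and 1045, 1010 and 1049 CPM in control cells (log2 fold change 0.26, SE 0.028). Neither gene's groups overlapped.

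The 3 proteins of the P stalk, the flexible arm that recruits the elongation GTPases, showed small values. Rplp0, the base of the stalk and a common reference gene in quantitative PCR, had 2018, 2068 and 2111 CPM in SAFB KD cells, against 1987, 1969 and 1909 CPM in control cells. Its log2 fold change was 0.08 (SE 0.027, adjusted p = 0.0172), and the call was lost without control 2, control 3, SAFB KD 2 or SAFB KD 3, with library totals as the scale and with the length trend removed. Rplp1 had 709, 697 and 701 CPM in SAFB KD cells and 642, 644 and 628 CPM in control cells (log2 fold change 0.14, SE 0.028), and lost its call with the length trend removed (0.03, adjusted p = 0.465 by edgeR). Rplp2 had 377, 360 and 349 CPM in SAFB KD cells, against 336, 340 and 367 CPM in control cells, so its groups overlapped, and it did not pass (log2 fold change 0.06, SE 0.033, adjusted p = 0.163), except without control 3.

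Other functional sites of the ribosome behaved like the whole. All 8 genes that line the exit tunnel or its rim (Rpl4, Rpl17, Rpl19, Rpl23a, Rpl26, Rpl31, Rpl35 and Rpl39) were higher, with a median log2 fold change of 0.26. All 6 genes of the mRNA channel and decoding region (Rps2, Rps3, Rps14, Rps23, Rps26 and Rps28) were higher, with a median of 0.22, although Rps28 reached 0.08 and lost its call without control 2, control 3, SAFB KD 2 or SAFB KD 3 and with DESeq2 size factors, upper quartile factors, library totals, edgeR's own filter or DESeq2's Wald test. With the length trend removed, Rps23 (0.05, adjusted p = 0.133 by edgeR), Rps26 (0.06, adjusted p = 0.170) and Rps28 (0.01, adjusted p = 0.902) did not pass, nor did Rpl39 of the exit tunnel. Of 5 genes at the tRNA sites, 4 were higher (Rpl36a, Rps15, Rps16 and Rps18) and Rpl10 did not pass. Of 18 genes in which human mutations cause Diamond-Blackfan anaemia, an inherited failure of red cell production, 16 were higher and 0 lower, with a median of 0.25; Rps10 and Rps27 did not pass.

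Only 2 members fell. Rpsa, which encodes a small-subunit protein also found at the cell surface as a laminin receptor, had 1717, 1780 and 1812 CPM in SAFB KD cells, against 1827, 1867 and 1892 CPM in control cells. The groups were apart by less than the range within either, and the log2 fold change was -0.07 (SE 0.028, adjusted p = 0.0308). Leaving out control 2, SAFB KD 1 or SAFB KD 2 ended this call, with adjusted p = 0.0742, 0.174 and 0.0540. Rpl13a, a large-subunit protein that in human monocytes also leaves the ribosome to silence inflammatory mRNAs, had 48.4, 51.2 and 53.4 CPM in SAFB KD cells and 56.7, 56.9 and 59.5 CPM in control cells (log2 fold change -0.17, SE 0.043, adjusted p = 8.45e-04).

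The count of Rpl13a is that of part of its mRNA only. Reads were counted when they matched a single place and a single gene, so exons that 2 annotated genes share on the same strand add nothing to either. In the GENCODE M21 annotation of the same build, Gm45713, an overlapping gene on the same strand, covers 59.3% of the principal Rpl13a transcript. Likewise Gm28037 covers 71.5% of that of Rpl24, RPS10-NUDT3 covers 53.6% of that of Rps10, and Gm49383 covers 26.0% of that of Rpl36al. The overlapping genes themselves had 0 reads, except Gm49383 with 2 reads in all. These 4 were the only members with more than 20% of their exonic bases shared, and they were 4 of the 6 members with a negative log2 fold change, the others being Rpsa and Rpl10.

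The 3 others of these 4 had too few reads for small changes to show. Rpl24 had 0.995, 1.04 and 0.629 CPM in SAFB KD cells, against 0.830, 0.862 and 1.07 CPM in control cells (log2 fold change -0.06, SE 0.27). Rps10 had 5.23, 5.24 and 4.75 CPM in SAFB KD cells and 6.54, 4.92 and 5.98 CPM in control cells (log2 fold change -0.20, SE 0.11) and was called lower only without control 2. A change of the members' median size could not have been told from 0 in Rpl24 and Rpl36al at this depth. Without the 4 genes, 72 of 78 members were higher and 1 lower, with a median log2 fold change of 0.23. What the shared exons contributed to the values of the 4 was not tested.

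**Figure D3:**
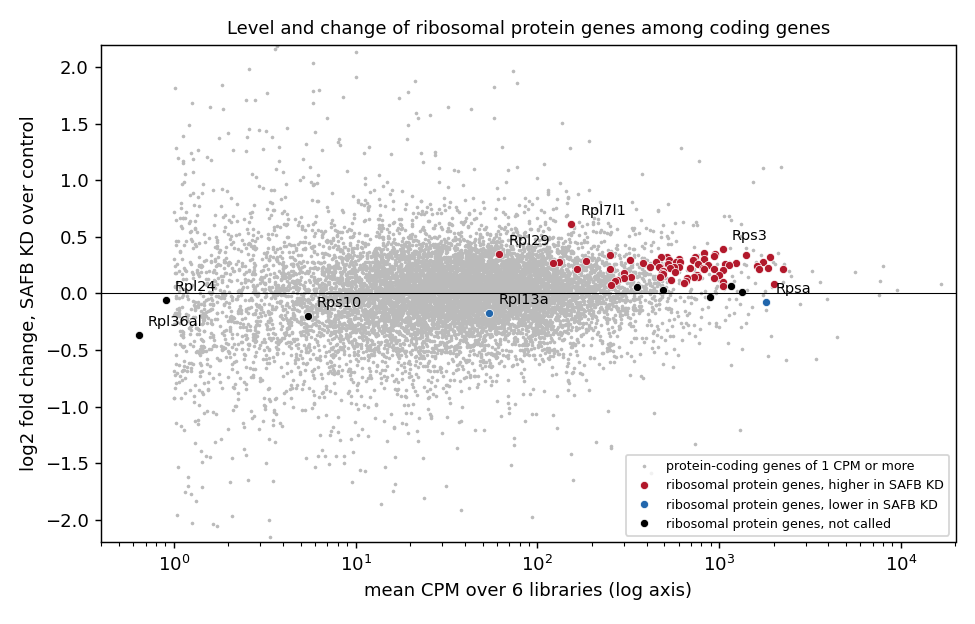
Log2 fold change of SAFB KD against control cells (y axis) by the mean CPM over the 6 libraries (log axis) for protein-coding genes of 1 CPM or more in grey and for the 82 ribosomal protein genes in colour, within the range of the axes. The members lie mostly between 100 and 2237 CPM in a band from about 0.1 to 0.4, and Rpl24, Rpl36al, Rps10 and Rpl13a sit at low counts and below 0.

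The 4 members on the X chromosome showed smaller values than most. Rps4x had 1339, 1303 and 1372 CPM in SAFB KD cells, against 1348, 1332 and 1302 CPM in control cells (log2 fold change 0.01, SE 0.028). Rpl10, which sits beside the peptidyl transferase centre and is known in yeast as a late-joining protein, had 882, 863 and 888 CPM in SAFB KD cells and 915, 914 and 865 CPM in control cells (log2 fold change -0.03, SE 0.029). Both had overlapping groups and neither passed the test, while Rpl36a (log2 fold change 0.11, SE 0.029) and Rpl39 (0.14, SE 0.031) were higher. With the length trend removed, Rpl36a (0.04, adjusted p = 0.304 by edgeR) and Rpl39 (0.06, adjusted p = 0.136) did not pass either. The median was 0.06 over the 4 X-linked members and 0.23 over the 78 autosomal members, of which 70 were higher. Other X-linked protein-coding genes of 100 CPM or more had a median of 0.07 (n = 76), and other autosomal ones a median of 0.04 (n = 2119). Rpl10 became a gene called lower with library totals as the scale (-0.07), with the length trend removed (-0.09) and without control 3 (-0.07). With 4 genes, this difference is a description and was not tested.

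Paralogs were compared with their core genes as reads of the paralog per 100 reads of the core gene, which does not depend on how libraries are scaled. Rpl7l1 (chromosome 17, 46773907 to 46782672, minus strand), whose yeast relative Rlp7 helps to assemble the large subunit and is not part of the finished ribosome, had 188, 185 and 186 CPM in SAFB KD cells, against 123, 123 and 119 CPM in control cells. It was the largest change of any member (1.53-fold; log2 fold change 0.61, SE 0.031, adjusted p = 2.49e-19). Its core gene Rpl7 had 2111, 2097 and 2159 CPM in SAFB KD cells and 1620, 1724 and 1742 CPM in control cells (log2 fold change 0.32, SE 0.029). Rpl7l1 had 8.89, 8.84 and 8.60 reads per 100 Rpl7 reads in SAFB KD cells, against 7.58, 7.15 and 6.86 in control cells.

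Rps27l, which p53 activates in human cells, also gained on its core gene. Rps27l had 177, 180 and 180 CPM in SAFB KD cells and 160, 150 and 151 CPM in control cells (log2 fold change 0.22, SE 0.032, adjusted p = 3.65e-07). Rps27 had 492, 503 and 491 CPM in SAFB KD cells, against 522, 475 and 457 CPM in control cells, with overlapping groups (log2 fold change 0.03, SE 0.034, adjusted p = 0.515), and it was called higher only without control 1. There were 35.9, 35.9 and 36.6 Rps27l reads per 100 Rps27 reads in SAFB KD cells and 30.7, 31.5 and 33.1 in control cells.

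The remaining pairs moved together or could not be told apart. Rpl22l1, which Rpl22 holds down in mouse cells, had 281, 271 and 262 CPM in SAFB KD cells, against 242, 226 and 232 CPM in control cells (log2 fold change 0.22, SE 0.032), and Rpl22 rose alike (0.26, SE 0.030). Rpl22l1 reads per 100 Rpl22 reads were 47.9 ± 2.93 in SAFB KD cells and 49.2 ± 2.88 in control cells. Rpl39l, best known from male germ cells, had 142, 143 and 149 CPM in SAFB KD cells and 125, 118 and 114 CPM in control cells (log2 fold change 0.28, SE 0.035). Rpl39l reads per 100 Rpl39 reads were 18.9 ± 1.20 in SAFB KD cells and 17.3 ± 1.39 in control cells (SD, n = 3 each), and the groups overlapped. Of 7 germ cell markers, 6 did not reach the read minimum, and Sycp3 was at 0 to 0.0763 CPM in SAFB KD cells and 0.0492 to 0.277 CPM in control cells. Rpl36al, the intronless copy of Rpl36a, had 0.398, 0.603 and 0.667 CPM in SAFB KD cells, against 0.991, 0.591 and 0.595 CPM in control cells (log2 fold change -0.37, SE 0.32).

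The difference of the mean log2 ratio of paralog to core gene, SAFB KD minus control, was 0.29 for Rpl7l1, 0.19 for Rps27l, 0.14 for Rpl39l, -0.04 for Rpl22l1 and -0.48 for Rpl36al. That of Rpl36al was -0.23 without control 1 and -0.25 without SAFB KD 1, that of Rpl39l 0.07 without control 3 and 0.09 without SAFB KD 3, and that of Rpl22l1 between -0.09 and 0.01 when a library was left out. Exact permutation tests over the 6 libraries, two-sided, gave p = 0.1 for Rpl7l1 and Rps27l, 0.2 for Rpl39l, 0.3 for Rpl36al and 0.5 for Rpl22l1. With 3 libraries against 3, 0.1 is the smallest p such a test can give, so no pair could pass. Adjusted over the 5 pairs the values were 0.25, 0.25, 0.333, 0.375 and 0.5, in the same order. The ratio was higher in all 3 SAFB KD libraries than in any control library for Rpl7l1 and Rps27l only.

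**Figure D4:**
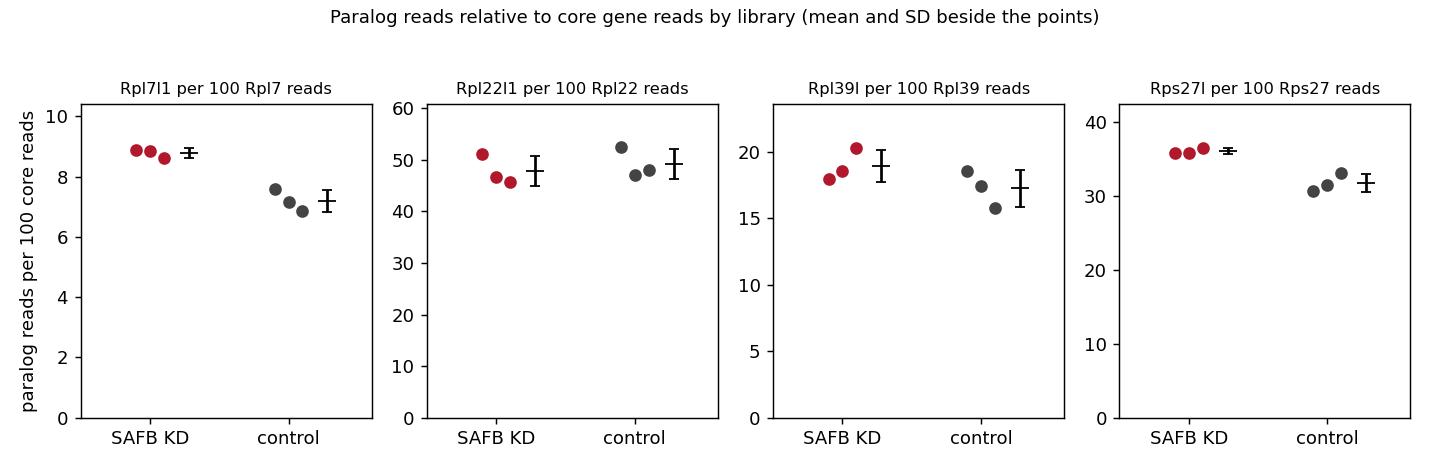
Reads of each paralog per 100 reads of its core gene (y axis, starting at 0) in the 3 SAFB KD and 3 control libraries, with the mean and SD beside the points. Rpl7l1 and Rps27l show no overlap between the groups (8.60 to 8.89 against 6.86 to 7.58, and 35.9 to 36.6 against 30.7 to 33.1), while Rpl22l1 and Rpl39l overlap.

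Levels of different genes were set beside each other per kilobase of the principal transcript. In SAFB KD cells the members ranged from 0.436 CPM per kilobase (Rpl36al) to 1961 CPM per kilobase (Rps3a1), and in control cells from 0.569 to 1620 with the same 2 genes at the ends. Next to Rps3a1 stood Rpl7 (1825 CPM per kilobase) and Rpl26 (1749 CPM per kilobase) in SAFB KD cells. Low levels were found for the 4 genes with shared exons, for Rpl7l1 (71.5 CPM per kilobase in SAFB KD cells and 46.7 in control cells) and for Rpl29 (94.4 in SAFB KD cells and 74.4 in control cells). This order is of reads counted at a single place, and how many reads of each member were lost to near-identical pseudogenes was not tested.

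Pseudogenes with a ribosomal protein name were also counted. Of 300 listed, 154 passed the read minimum, with a median log2 fold change of 0.19. Of these, 12 were higher (7.79%, against 21.4% of all genes tested), 0 were lower and 142 were not called, while 115 values were above 0 and 39 below. The 154 together summed to 1608 to 1702 CPM in SAFB KD libraries, more than 859 of it in 1 pseudogene in most of them. Most thus had few reads, at which small changes are hard to call. The most abundant, Rps2-ps13, had 859, 895 and 886 CPM in SAFB KD cells, against 743, 756 and 731 CPM in control cells, close to the level of Rps2 itself (902, 912 and 932 CPM in SAFB KD cells and 728, 754 and 739 CPM in control cells). Both rose, by log2 fold changes of 0.24 (SE 0.028) and 0.31 (SE 0.028), and values of such near-identical copies are uncertain. Rps2-ps10 (0.28), Rps26-ps1 (0.31) and Rpl3-ps1 (0.14), the next in abundance, were also higher.

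What the members share beyond their names was read from the annotation and the promoter sequences. Their principal transcripts had a median of 878 bases over the 79 members of 10 CPM or more (345 to 5179), against 2956 bases over protein-coding genes. Across these 79 genes, Spearman's rho with the log2 fold change was 0.055 for transcript length, -0.035 for mean CPM, 0.095 for the percentage of adenine, -0.016 for the number of exons and -0.15 for the number of snoRNA genes in the introns. These correlations are across genes that share the same libraries, and are given as a description. Introns of 30 members held snoRNA genes, and 25 of these were higher and 2 lower (median 0.21), while 47 of the 52 members without were higher and 0 lower (median 0.23). GAAGAA, a purine-rich hexamer of the kind SAFB proteins are known to bind, was found in the principal transcripts of 56 members (68.3%), against 82.7% of protein-coding genes, whose transcripts are longer.

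Promoter windows of 250 bases before and 50 after the RefSeq start were matched by symbol for 62 of the 82 genes. A run of 7 or more pyrimidines on the gene's strand touched the 15 bases on either side of the start in 35 of them (56.5%), against 25.4% of 27025 promoters. The median log2 fold change was 0.22 with such a run and 0.21 without. The letters CCGGAAG, a core of the motif of the factor GABP, were present on either strand in 25 of 62 (40.3%, against 9.12% of all promoters), and AAGATGGC, a motif of the factor YY1, in 5 (8.06%, against 2.88%). The E-box CACGTG, the motif bound by MYC with MAX, was present in 5 (8.06%, against 7.24%), and TATAAA in 6 (9.68%, against 14.2%). Medians were 0.23 with and 0.22 without CCGGAAG, 0.21 with and 0.22 without CACGTG, and 0.13 with and 0.22 without TATAAA. A match in these windows describes letters only.

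Transcript length moved with the values among other abundant genes. Among the 79 members of 10 CPM or more rho was 0.055. That rho rests on annotated principal transcripts, some of them long, as for Rps15a (5179 bases) and Rps20 (3706 bases). Of the 45 other protein-coding genes of 300 CPM or more with transcripts of up to 1500 bases, 30 were higher (66.7%) and 7 lower (15.6%), with a median log2 fold change of 0.15. Of the 423 longer ones, 200 were higher (47.3%) and 130 lower (30.7%), with a median of 0.05. Over all 468, Spearman's rho between transcript length and log2 fold change was -0.23. With the trend on exonic length removed from each library, 59 members were higher and 3 lower, against 72 and 2 in the main fit. The median over the members was then 0.16, against 0.22. The part of RNA length or integrity in the members' values was not tested beyond this.

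**Figure D5:**
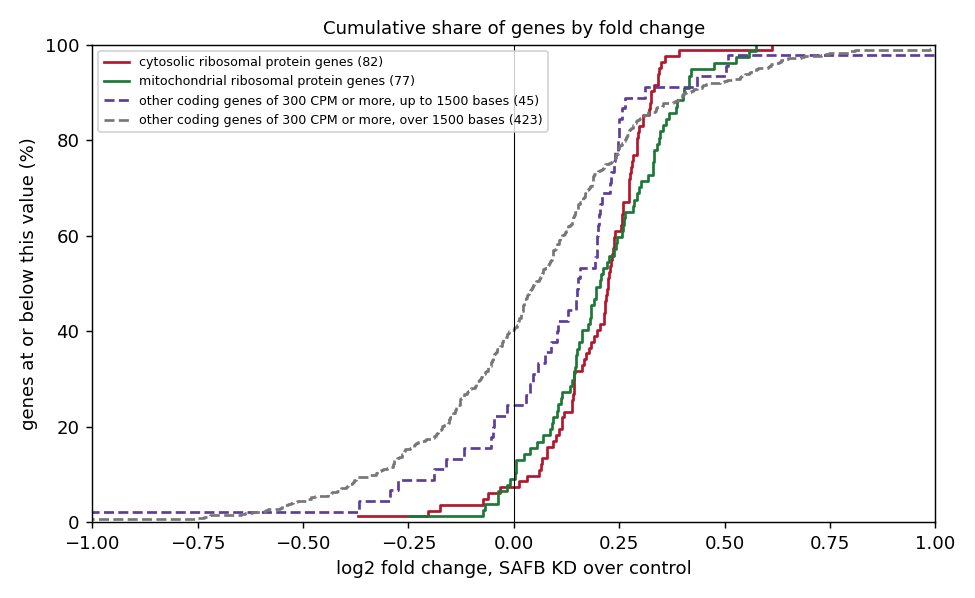
Cumulative percentage of genes (y axis) at or below each log2 fold change of SAFB KD against control cells (x axis, shown from -1 to 1), for the 82 cytosolic ribosomal protein genes, 77 mitochondrial ribosomal protein genes, and other protein-coding genes of 300 CPM or more with transcripts up to or over 1500 bases. The first 2 curves cross 50% at 0.22 and 0.20, to the right of the short (0.15) and long (0.05) other genes.

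Related genes outside the name rule were read from lists. Of ribosomal proteins with other names, Fau (log2 fold change 0.24, SE 0.030) and Rack1 (0.26, SE 0.028), a scaffold on the small subunit, were higher. Of 15 TOP mRNAs that encode no ribosomal protein, 12 were higher (80%) and 1 lower (6.67%), with a median of 0.12. The 468 protein-coding genes of 300 CPM or more outside the members gave 49.1% higher and 29.3% lower. Among the 12 were the elongation factor gene Eef2 (0.20, SE 0.026), the initiation factor gene Eif3e (0.22, SE 0.028), the translationally controlled protein gene Tpt1 (0.26, SE 0.027) and the nucleolar chaperone gene Npm1 (0.27, SE 0.033). Pabpc1, the cytoplasmic poly(A)-binding protein, was lower (-0.09, SE 0.029). Mitochondrial ribosomal proteins, made in the cytosol for the separate ribosome of mitochondria, are also encoded by short mRNAs, but are not TOP mRNAs as a class. Of 77 tested, 56 were higher (72.7%) and 1 lower (1.30%), with a median of 0.20, where all protein-coding genes gave 27.6% and 25.7%. Examples were Mrpl12 (90.0 ± 1.66 CPM in SAFB KD cells and 60.3 ± 2.56 CPM in control cells; log2 fold change 0.57, SE 0.038) and Mrpl38 (90.9 ± 2.26 CPM in SAFB KD cells and 61.8 ± 0.727 CPM in control cells; SD, n = 3 each; 0.56, SE 0.036).

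Of 15 genes of mTORC1 and of TOP mRNA control, 4 were higher and 4 lower, with a median of -0.01. These are 26.7% each way, near the 27.6% higher and 25.7% lower of all protein-coding genes. Eif4ebp1, a translation repressor that mTORC1 inactivates, had 79.2, 84.7 and 86.5 CPM in SAFB KD cells, against 56.2, 52.0 and 55.2 CPM in control cells (log2 fold change 0.62, SE 0.040), and Larp1b (0.73, SE 0.061), Larp4 (0.27, SE 0.031) and Rheb, the GTPase that switches mTORC1 on (0.29, SE 0.034), were also higher. Rptor, Tsc1, Deptor and Eif4ebp2 were lower, with log2 fold changes of -0.26, -0.15, -0.39 and -0.35, and Larp1, the main TOP-binding protein, was at 282 ± 1.77 CPM in SAFB KD cells and 290 ± 20.8 CPM in control cells and did not pass. Of 9 promoter factors, 3 were higher (Myc, Mycn and Max) and 1 was lower (Zbtb7a). These are 33.3% higher and 11.1% lower, where all protein-coding genes gave 27.6% and 25.7%. Mycn had few reads, at 0.858 to 1.02 CPM in SAFB KD cells and 0.230 to 0.369 CPM in control cells (SE 0.34). Myc, a general activator of ribosome synthesis, had 176, 195 and 193 CPM in SAFB KD cells, against 107, 99.2 and 94.9 CPM in control cells (log2 fold change 0.90, SE 0.039). Of 14 dedicated chaperones and importers, 8 were higher (57.1%) and 2 lower (14.3%). Ipo7, an importin that carries ribosomal proteins into the nucleus, was among the higher (0.26, SE 0.029), as was Pdcd2, a chaperone of the product of Rps2 (0.43, SE 0.055). Tsr2, the chaperone of the product of Rps26, was lower (-0.18, SE 0.053), and so was the importin gene Tnpo1 (-0.23, SE 0.030).

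The libraries held 33323307 to 53441129 counted reads. The knockdown targets Safb, Safb2 and Sltm were lower in SAFB KD cells, with log2 fold changes of -1.01, -0.64 and -0.70 and no overlap between groups. The control library 3 stood apart from the other controls on the second principal component, at -44.2 against 23.1 and 26.5. It was the highest control for 30, the lowest for 33 and between the others for 16 of the 79 members of 10 CPM or more, and without it 70 of the 82 were higher and 3 lower with a median of 0.21. Of 9 fibroblast markers, all were detected, 7 were lower in SAFB KD cells and 0 higher, with summed levels of 17447 to 17916 CPM in SAFB KD cells and 18830 to 20748 CPM in control cells. The 4 epithelial markers summed to 0.302 to 0.455 CPM in SAFB KD cells and 0.179 to 0.320 CPM in control cells, with Epcam and Krt18 below the read minimum. The 4 leukocyte markers summed to 2.10 to 2.30 CPM in SAFB KD cells and 2.24 to 2.90 CPM in control cells, and of them only Lyz2 passed the read minimum. The 3 endothelial markers summed to 9.32 to 10.3 CPM in SAFB KD cells and 7.89 to 8.32 CPM in control cells, with Pecam1 higher (log2 fold change 0.72, adjusted p = 0.0187 by edgeR) and Kdr below the read minimum. Of 6 muscle markers, Tnnt2 accounted for nearly all the signal, at 77.1 to 78.3 CPM in SAFB KD cells and 42.1 to 45.9 CPM in control cells, while Myod1, Myog, Ckm and Myh6 did not reach the read minimum. The part of these marker changes in the members' values was not tested.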

How the data were processed

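Poly(A)+ RNA libraries of 3 SAFB KD and 3 control samples were analysed. Per the study's methods and processing notes, the authors trimmed the reads and ran STAR (2.7.9a) over the GRCm38 genome in 2 passes with GENCODE gene models. The deposited values are raw whole-number counts per gene of uniquely mapped reads that fall in a single gene. The strand-specific column is taken to be the one deposited, from the kit. Exons, symbols and principal transcripts came from GENCODE M21 (54495 of 54532 identifiers matched) and promoters from RefSeq.

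Genes with 10 or more reads over the 6 libraries were fitted with edgeR 4.0.16 (TMM, quasi-likelihood test, R 4.3.3) and Benjamini-Hochberg adjustment over all 19452 genes. CPM are scaled by the TMM factors. SE is the log2 fold change divided by the square root of the F statistic. Ratios of paralog to core reads had 0.5 read added to both and were tested with scipy 1.17.1. The fit was tested on simulated counts. Alternatives were other normalisations (DESeq2 1.42.0 size factors, library totals, upper quartile and, added after seeing the data, TMM without the ribosomal protein genes), other filters, DESeq2's Wald test, limma-voom 3.58.1, a replicate block, removal of the trend on exonic length (lowess, span 0.3) and leaving out each library.

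Given in full were all paralogs with their core genes, the 6 largest rises and all falls among core genes called. Genes chosen by role and the ends of the level range were also given. Each list gave up to 4 genes of smallest adjusted p, except the pseudogenes, which were taken by highest mean CPM. Other genes were singled out after their values were seen. The members and lists were chosen with earlier results of these data known. A few genes are counted but not reported by name here, nor drawn in the plot of single genes.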

Additional observations from a re-analysis of the deposited data

How the results depend on the processing

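Of the 82 genes, 57 were called higher in each of the 17 settings run. The number called higher was 59 with the length trend removed, 65 with library totals as the scale and 70 to 73 under the other settings with all libraries. It was 66 to 71 when 1 library was left out, when the number lower was 1 to 3. The lower number of 1 arose without SAFB KD 1 or SAFB KD 2, through the loss of Rpsa. The median log2 fold change, 0.22, moved beyond the spread between libraries to 0.18 with library totals, where the median of all genes was -0.03, and to 0.16 with the length trend removed. It was 0.21 to 0.24 when a library was left out.

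Values near 0 changed sign. Rps27 was at -0.00873 with library totals and -0.0663 with the length trend removed, and at -0.0235 to 0.0810 when a library was left out, the lowest without control 3. Rps4x was at -0.0279 with library totals and -0.0638 with the length trend removed, and at -0.0160 to 0.0288 when a library was left out. The log2 fold change of Rpl24 was -0.208 to 0.156 when a library was left out. The log2 ratio of Rpl22l1 to Rpl22 ranged between -0.0894 and 0.00732 when a library was left out, the positive value being that without control 1.

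The labels do not say that samples of the same number were paired, and same-numbered deviations correlated at -0.00514, -0.00907 and -0.0166. Such values show no shared deviation, but cannot show whether those cultures were handled together. With the replicate block, 72 members were higher and 2 lower, with a median of 0.223, and over all genes 4186 were higher and 3931 lower, against 4156 and 3908 without it. The design has 3 samples a group, and the few reads of Rpl24, Rpl36al and Rps10 limit what can be said of them.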
